A study of Mus musculus with 230 samples.

Results

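The nuclear genes for the subunits of the 5 oxidative phosphorylation complexes were followed across 6 brain regions of male C57BL/6J mice after self-administration of cocaine or saline. The members were the protein-coding nuclear genes whose mouse symbol starts with Nduf followed by a, b, c, s or v, with Sdha to Sdhd, Uqcr, Cox4 to Cox8 or Atp5, without the assembly factors Ndufaf and Sdhaf. This rule found 85 genes among the 43346 gene identifiers of the deposited table: 38 of complex I, 4 of complex II, 8 of complex III, 18 of complex IV and 17 of complex V, the ATP synthase. A further 11 identifiers with such symbols were not protein-coding and were left out. Of the 85 members 84 passed the filter on low counts of the fit over all regions; the exception was Cox8c, with counts in 3 libraries only.

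The data were raw read counts of RNA sequencing libraries from the ventral tegmental area (VTA, 31 libraries), the caudate putamen of the dorsal striatum (CPu, 42 libraries), the basolateral amygdala (BLA, 38), the nucleus accumbens (NAc, 39), the ventral hippocampus (vHipp, 39) and the prefrontal cortex (PFC, 41). In the 24 h groups tissue was taken 24 h after the last session, without an injection: C24 mice had self-administered cocaine (8 mice) and S24 mice saline (8 mice). In the 30 d groups the mice received 1 intraperitoneal injection of cocaine or saline after 30 d of withdrawal and tissue was taken 1 h later. The first letter of these groups gives the self-administered solution and the second the injection: CC (7 mice), CS (6 mice), SC (8 mice) and SS (8 mice). The number in the library titles was taken as the mouse, so 1 mouse gave up to 6 libraries, and each region and condition group held 3 to 8 libraries. In the fits over 6 regions the libraries of a mouse correlated weakly (consensus correlation 0.0398), so those p-values rest mostly on the spread between libraries; values with 1 mean per mouse stand beside the calls between conditions.

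Total counts ran from 11866570 to 42135683 per library, with regional medians of 21479362 to 24244763. Slc6a3, the dopamine transporter gene and a marker of midbrain dopamine neurons, had 779 to 2935 CPM (read counts scaled to library size with TMM factors) in VTA libraries and medians under 1 CPM in the other 5 regions, where 1 NAc library reached 61.9 CPM and 1 vHipp library 159 CPM. Drd1, a dopamine receptor gene of striatal neurons, had 324 to 473 CPM in CPu libraries, 158 to 324 CPM in NAc libraries and at most 124 CPM in a library of any other region. All 37 genes encoded by mitochondrial DNA stood at 0 in every library, so the subunits encoded there are not covered, and only the nuclear side of the complexes was measured.

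Complexes I to IV form the respiratory chain of the inner mitochondrial membrane. Complex I (the Nduf genes) takes electrons from NADH and complex II (the Sdh genes), which is also an enzyme of the citrate cycle, takes them from succinate; complex III (the Uqcr genes) passes them to cytochrome c, and complex IV (the Cox genes), cytochrome c oxidase, passes them to oxygen. Complex V (the Atp5 genes) uses the proton gradient to make ATP, on which neurons depend for ion pumping and synaptic transmission. Several complex IV subunits exist as a widely expressed form and a form best known from heart, skeletal muscle, lung or testis. NRF1 and the ETS family factor GABP are regulators known to bind the promoters of many of these genes.

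The promoters of 4 members on which the results turn are shown here from RefSeq, build GRCm38.p6, from 250 bases before to 30 bases after the annotated start, 5′ to 3′ on the strand of the gene. Sdha, the catalytic flavoprotein of complex II, and Cox7a1, the heart and muscle form of a small complex IV subunit, were among the members higher in the VTA. Cox8a, the widely expressed form of a small complex IV subunit, and Atp5j2, a small membrane subunit of the ATP synthase (subunit f), were the members that differed between conditions. Capitals mark matches to the letters GCGCNTGCG (NRF1) or CCGGAAG (ETS) on either strand. The regions are chr13:74350211-74350490 on the minus strand for Sdha, chr7:30183921-30184200 on the plus strand for Cox7a1, chr19:7217587-7217866 on the minus strand for Cox8a and chr5:145191512-145191791 on the minus strand for Atp5j2.
Sdha: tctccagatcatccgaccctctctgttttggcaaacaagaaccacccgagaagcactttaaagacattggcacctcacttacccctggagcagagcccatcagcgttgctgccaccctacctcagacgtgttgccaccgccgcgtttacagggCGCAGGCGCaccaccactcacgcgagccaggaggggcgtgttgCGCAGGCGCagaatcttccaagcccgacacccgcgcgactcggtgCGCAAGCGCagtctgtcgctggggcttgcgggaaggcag
Cox7a1: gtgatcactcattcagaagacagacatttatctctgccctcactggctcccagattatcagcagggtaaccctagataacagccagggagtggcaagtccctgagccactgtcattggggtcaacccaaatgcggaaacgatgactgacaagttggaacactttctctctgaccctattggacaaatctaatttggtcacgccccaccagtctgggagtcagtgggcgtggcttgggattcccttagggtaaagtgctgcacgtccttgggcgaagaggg
Cox8a: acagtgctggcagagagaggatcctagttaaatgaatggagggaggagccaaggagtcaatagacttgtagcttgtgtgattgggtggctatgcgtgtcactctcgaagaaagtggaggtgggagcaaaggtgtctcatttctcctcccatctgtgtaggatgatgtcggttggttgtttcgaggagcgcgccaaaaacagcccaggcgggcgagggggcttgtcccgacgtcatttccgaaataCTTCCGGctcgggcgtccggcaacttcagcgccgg
Atp5j2: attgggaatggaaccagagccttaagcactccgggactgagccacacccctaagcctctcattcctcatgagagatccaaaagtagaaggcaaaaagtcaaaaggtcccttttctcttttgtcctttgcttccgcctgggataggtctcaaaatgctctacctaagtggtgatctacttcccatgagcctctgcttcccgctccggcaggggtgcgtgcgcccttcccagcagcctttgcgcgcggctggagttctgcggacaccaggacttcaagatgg

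The Sdha promoter held the NRF1 letters at 3 places and the Cox8a promoter the ETS letters within the bases shown, while the Cox7a1 and Atp5j2 promoters held neither motif. Of the 85 members 69 had an entry in the promoter table, with 74 promoters in all (250 bases before to 50 bases after the start). The NRF1 letters stood in 24 of these 74 promoters (32.43%), against 2074 of 32851 promoters of the whole table (6.31%). The ETS letters stood in 16 of 74 (21.62%), against 2910 of 32851 (8.86%). Among promoters of protein-coding genes, the closer background, they stood in 1831 of 21263 (NRF1, 8.61%) and 2459 of 21263 (ETS, 11.56%). The 2 motifs were counted separately, and a match is only a run of letters.

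The VTA had the highest levels of subunit transcripts. Of the 84 members tested 65 were higher and 7 lower in the VTA than in the mean of the other 5 regions (limma, adjusted p under 0.05), against 40.6% of all 18927 genes higher and 43% lower. The members' median log2 difference was 0.28, against -0.02 for all genes. The VTA had the highest median CPM of the 6 regions for 62 of the 85 members, followed by the CPu with 15. As the mean log2 CPM of the 84 members, the lowest, median and highest VTA libraries stood at 5.92, 6.05 and 6.32, against medians of 5.77 in the BLA, 5.90 in the CPu, 5.79 in the NAc, 5.75 in the PFC and 5.87 in the vHipp. The VTA library was the highest of its mouse in 21 of 31 mice and the lowest in 0. The ranges overlapped, and 1 BLA library (6.72), 1 NAc library (6.56) and 1 CPu library (6.401) lay above every VTA library. With each mouse left out in turn, 71 to 73 members were called in the VTA, against 72 with all mice.

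**Figure D1:**
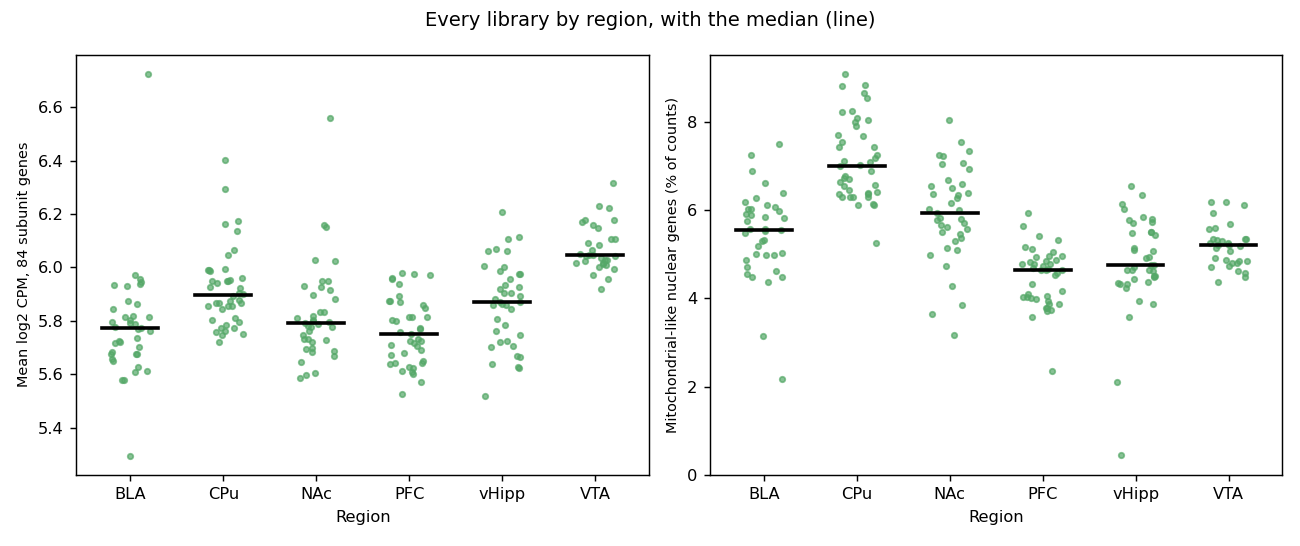
Left, mean log2 CPM of the 84 tested subunit genes in every library by region; right, the share of counts (percent) of 18 nuclear genes with a stretch like a mitochondrial transcript; points are libraries and lines medians. The VTA has the highest median on the left (6.05), the CPu the highest on the right (7.01%).

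Within complex I, the NADH dehydrogenase, 30 of 38 members were higher in the VTA and 0 lower, with a median log2 difference of 0.28. Ndufs1, the largest iron-sulfur subunit, had 146, 168 and 188 CPM (lowest, median, highest) in VTA libraries, against medians of 111.2 CPM for the BLA, 141 CPM for the CPu, 126 CPM for the NAc, 117 CPM for the PFC and 129 CPM for the vHipp. Its VTA libraries overlapped those of other regions at their lower end. Ndufb2, a small accessory subunit of the membrane arm, had 32.5, 40.7 and 47.4 CPM in VTA libraries, and 18.4, 24.9 and 34.0 CPM in CPu libraries, the region with its lowest median. The log2 difference of Ndufb2 was 0.56 in the VTA (SE 0.026, adjusted p 1.64e-52) and -0.29 in the CPu (SE 0.024, adjusted p 1.69e-24). Ndufa4, now known as a subunit of complex IV and counted under its Nduf symbol, had 157, 194.5 and 229 CPM in VTA libraries, and medians of 157 to 172 CPM in the other regions (log2 difference 0.23, SE 0.039, adjusted p 1.58e-08). Its paralogue Ndufa4l2, known as a hypoxia-induced gene, stood at medians of 1.64 to 2.11 CPM in all 6 regions and passed the test as higher in the CPu (log2 difference 0.26, adjusted p 1.45e-06) and lower in the PFC (-0.13, adjusted p 0.0301; the PFC call was lost in 6 of 45 fits that each left out 1 mouse, with adjusted p up to 0.0714).

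All 4 genes of complex II were higher in the VTA. Sdha had 537, 583 and 649 CPM in VTA libraries, against medians of 390 CPM (NAc), 405 CPM (CPu), 406 CPM (BLA), 407 CPM (PFC) and 418 CPM (vHipp). The highest library of any other region had 525.8 CPM, so no library outside the VTA reached the lowest VTA library. The log2 difference was 0.52 (SE 0.016, adjusted p 4.36e-79). Sdhc, a membrane anchor of the complex, had 85.5, 96.8 and 110.7 CPM in VTA libraries and overlapped the other regions (medians of 64.9 to 86.0 CPM; log2 difference 0.37, adjusted p 1.12e-27). Sdhb, the iron-sulfur subunit, and Sdhd, the other anchor, had log2 differences of 0.26 and 0.27.

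In complex III, the cytochrome bc1 complex, 7 of 8 members were higher in the VTA and Uqcr11 was lower. Uqcrc1, a core subunit, had 249, 281 and 330 CPM in VTA libraries, and medians of 198 to 222 CPM elsewhere. Uqcr11, a small subunit, had 44.9, 59.8 and 76.4 CPM in VTA libraries, against a highest median of 74.9 CPM in the CPu and overlapping libraries throughout (log2 difference -0.25, SE 0.048, adjusted p 1.14e-06). In complex V 14 of 17 members were higher in the VTA and only Atp5g2 was lower, with a median log2 difference of 0.33 over the complex. Atp5b, the catalytic beta subunit and the member with the highest counts, had 1240.1, 1436 and 1593 CPM in VTA libraries, and medians of 986 CPM in the BLA to 1215 CPM in the CPu. Atp5s, a gene also named Dmac2l, had 16.9, 20.0 and 23.2 CPM in VTA libraries, against medians of 11.4 to 14.9 CPM elsewhere, with its lowest median in the CPu (log2 difference there -0.34, SE 0.033, adjusted p 3.46e-20).

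The 3 genes for the membrane ring subunit c of the ATP synthase encode the same mature protein and went different ways. Atp5g3 had 209, 260 and 328 CPM in VTA libraries and medians of 179 to 196 CPM elsewhere (log2 difference 0.44, adjusted p 5.69e-19). Atp5g1 had 117, 136 and 154 CPM in VTA libraries and medians of 99.9 to 117 CPM elsewhere (0.34, adjusted p 9.87e-19). Atp5g2 was instead higher in the striatal regions, with medians of 48.1 CPM for the CPu and 47.9 CPM for the NAc, and of 38.9 to 40.5 CPM in the other 4 regions (log2 difference 0.23 in the CPu, adjusted p 1.24e-13; -0.11 in the VTA, adjusted p 0.000976). Atp5g2 shares 38.3% of its 50-base words with other annotated genes, among them Gm10175 and Gm10231, so reads could have been split between them.

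**Figure D2:**
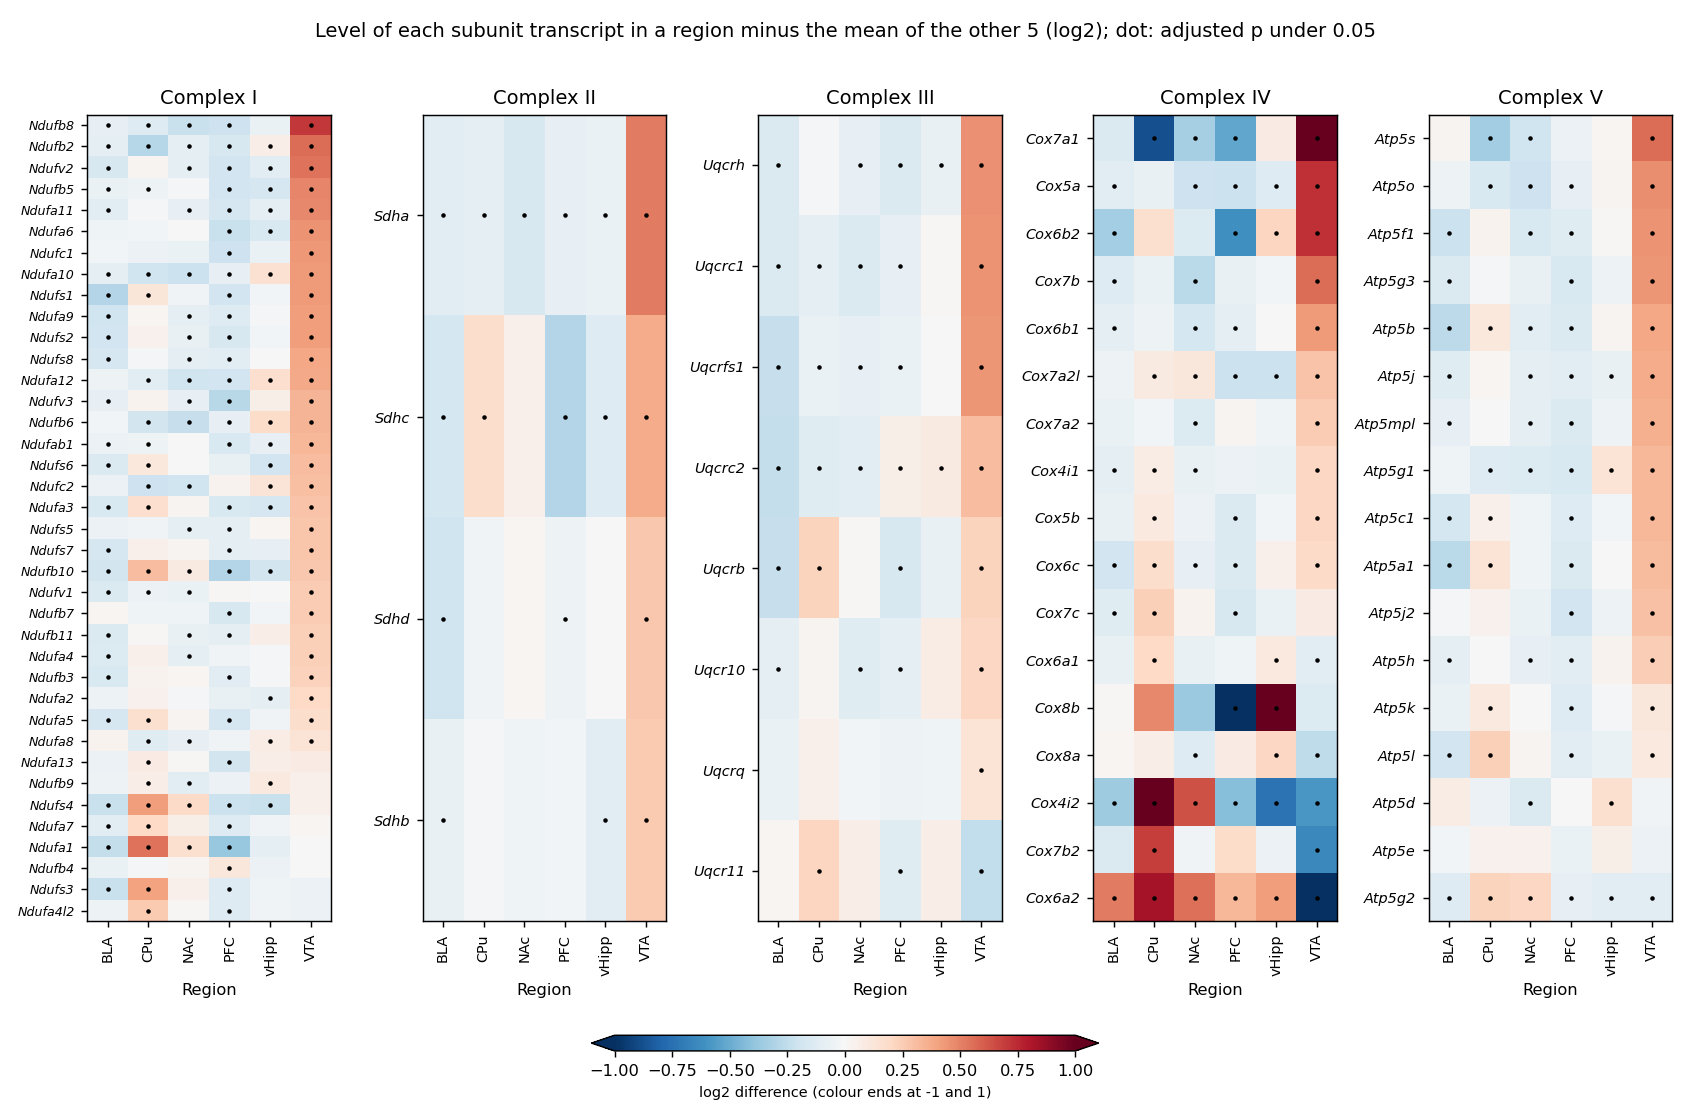
Log2 difference of each of the 84 tested subunit genes (rows, by complex) between a region (columns) and the mean of the other 5; red is higher, blue lower, colour ends at -1 and 1, and a dot marks an adjusted p under 0.05. The VTA column is red for 65 called members, and the isoforms at the bottom and top of complex IV carry the strongest colours.

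Complex IV was the least uniform: in the VTA 10 of 17 tested members were higher and 5 lower, and the strongest regional differences of all members lay in its tissue-restricted forms. Cox6a2, the heart and muscle form of subunit 6a, had 0.154, 0.567 and 1.58 CPM in VTA libraries, against medians of 3.39 CPM (PFC), 3.5 CPM (vHipp), 3.93 CPM (BLA), 3.95 CPM (NAc) and 4.46 CPM (CPu). Apart from 1 vHipp library at 0.995 CPM, every library outside the VTA lay above every VTA library. The log2 difference in the VTA was -2.65 (SE 0.116, adjusted p 1.19e-56). The mean that each other region was set against holds the low VTA value, so the differences of 0.33 in the PFC to 0.83 in the CPu follow in part from it. Its widely expressed counterpart Cox6a1 had medians of 166 to 199 CPM, with 170 CPM in the VTA (log2 difference -0.10, adjusted p 0.0307); this call was lost without any 1 of 3 mice, with adjusted p up to 0.0572.

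Cox7a1 had 1.23, 1.97 and 2.87 CPM in VTA libraries, and 0.205, 0.419 and 0.697 CPM in CPu libraries, which lay wholly below them. The log2 difference was 1.79 in the VTA (SE 0.089, adjusted p 3.69e-49) and -0.88 in the CPu (SE 0.118, adjusted p 5.57e-12). Cox7a2, the widely expressed form, and Cox7a2l, a related protein studied for its part in respiratory supercomplexes, were also higher in the VTA. Their differences were 0.25 and 0.28 on the log2 scale, with medians of 112 and 155 CPM there. Cox4i2, the lung form of subunit 4 that is known to respond to low oxygen, was highest in the CPu, where its libraries had 1.86, 2.97 and 4.41 CPM, followed by the NAc with 1.37, 1.79 and 4.30 CPM. The other regions had medians of 0.806 CPM in the vHipp to 1.04 CPM in the PFC, and the CPu and NAc libraries overlapped. Its log2 difference was 1.45 in the CPu (SE 0.053, adjusted p 8.20e-68), 0.64 in the NAc (adjusted p 6.32e-20) and -0.74 in the vHipp (adjusted p 4.52e-17). Cox4i1, the main form, varied from medians of 284 CPM in the NAc to 358 CPM in the VTA (log2 difference in the VTA 0.21, adjusted p 5.55e-08).

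Cox5a, a peripheral subunit, had 56.9, 81.5 and 98.4 CPM in VTA libraries and medians of 46.6 to 50.3 CPM elsewhere (log2 difference 0.73, SE 0.046, adjusted p 3.09e-36). Cox6b1, a subunit at the joint of the complex IV dimer, had 144.7, 174 and 210 CPM in VTA libraries and medians of 121.5 to 139 CPM elsewhere (0.43, adjusted p 4.14e-21), and its testis form Cox6b2 had 1.15, 2.12 and 4.24 CPM there and medians of 1.01 to 1.52 CPM elsewhere (0.73, adjusted p 2.69e-11). Cox7b, another small subunit, was higher in the VTA (log2 difference 0.56, adjusted p 2.29e-31), where its testis paralogue Cox7b2 was lower (-0.64, adjusted p 0.000742). Cox7b2 stood at medians of 0.148 CPM in the VTA and 0.301 CPM in the CPu, where it was called higher (0.69, adjusted p 1.13e-06), and these levels rest on few reads per library. Cox8a had 134, 156 and 267 CPM in VTA libraries and medians of 169 CPM in the NAc to 212 CPM in the vHipp elsewhere, a log2 difference of -0.26 in the VTA (adjusted p 8.68e-06) and 0.21 in the vHipp (adjusted p 5.78e-05).

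**Figure D3:**
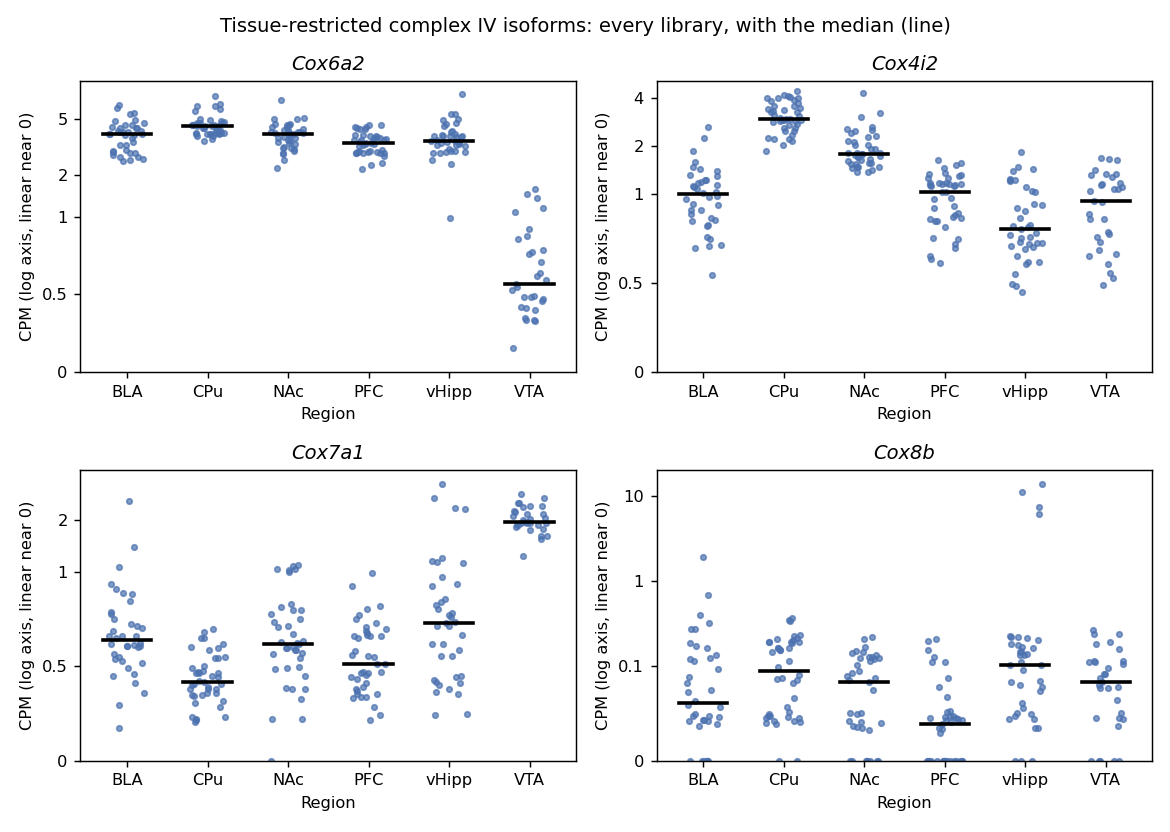
CPM of 4 tissue-restricted complex IV subunit genes in every library by region (vertical axes logarithmic, linear near 0; lines are medians). Cox6a2 is low in the VTA (median 0.567 CPM), Cox7a1 high there (1.97 CPM), Cox4i2 high in the CPu (2.97 CPM), and 4 vHipp libraries stand apart for Cox8b.

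Cox8b, the heart and muscle form of subunit 8, was called higher in the vHipp (log2 difference 1.11, SE 0.237, adjusted p 1.10e-05) and lower in the PFC (-1.10, adjusted p 0.000475). In the vHipp 4 libraries, 1 each of the groups CC, CS, SC and S24, had 6.08 to 13.8 CPM of Cox8b, against a median of 0.0954 and a highest value of 0.228 CPM in the other 35. The same 4 libraries held 9705 to 20222 summed CPM of 6 choroid plexus markers, against 10.8 to 109 summed CPM in the other 35 vHipp libraries. Cox7a1 in these 4 libraries was 2.33 to 3.29 CPM, against 0.242 to 1.21 CPM in the others, and Cox6b2 was 5.97 to 11.8 CPM, against 0.670 to 3.75 CPM. In a refit without the 14 libraries of highest choroid plexus or blood cell markers Cox8b no longer passed the filter on low counts, and the vHipp difference of Cox6b2 turned round (0.21, adjusted p 0.0467, with all libraries; -0.081, adjusted p 0.375, without them). With each mouse left out in turn the vHipp difference of Cox6b2 ran from 0.11 to 0.26, and it missed the threshold in 19 of 45 fits.

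The 6 differences of a gene, each region against the mean of the others, sum to 0, so high VTA levels by themselves place the other regions lower, and the counts that follow are not separate from those of the VTA. In the PFC 63 members were lower and 3 higher, against 37.5% and 33.6% of all genes, with a median log2 difference of -0.13 and calls in the lower direction for 30 of 38 members of complex I and 14 of 17 of complex V. The 3 called higher were Cox6a2, Ndufb4 (0.11), an accessory subunit of complex I, and Uqcrc2 (0.06), a core subunit of complex III. For Cox6a2 the PFC median of 3.39 CPM was the lowest outside the VTA, and its difference of 0.33 comes from a mean that holds the VTA median of 0.567 CPM. Cox6b2 (-0.61, adjusted p 2.84e-07) and Cox7a1 (-0.52, adjusted p 1.61e-05) were the lowest after Cox8b. In the BLA 53 members were lower and 1 was called higher, again Cox6a2 set against a mean that holds the VTA (0.52, adjusted p 4.10e-14), against 32.7% and 33.9% of all genes, with a median of -0.11. All 4 members of complex II, 25 of 38 of complex I and 6 of 8 of complex III were lower there. Ndufs1 showed a BLA difference of -0.29 (SE 0.021, adjusted p 1.28e-29), with Cox4i2 at -0.36 and Cox6b2 at -0.34. Ndufab1, the mitochondrial acyl carrier protein, and Ndufb5, an accessory subunit, were the called members closest to 0 (both -0.06); the call of Ndufab1 was lost in 8 of 45 fits that each left out 1 mouse, with adjusted p up to 0.0725.

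In the NAc 41 members were lower and 7 higher, against 37.8% and 36.7% of all genes, with a median of -0.07. Cox7a1 (-0.33), Cox7b (-0.27) and Ndufb6 (-0.23), an accessory subunit of complex I, were the lowest, and Cox4i2, Cox6a2 (set against a mean that holds its low VTA value) and Atp5g2 the highest. Without 1 CC mouse, whose NAc library had 0 CPM of Cox7a1, the NAc difference of Cox7a1 was -0.205 (adjusted p 0.0579) and not called. In the CPu 30 members were higher and 18 lower, against 39.5% and 40.9% of all genes, and the median was 0.03. There 9 of 17 tested members of complex IV were higher and 1 lower, while complex I divided into 12 higher and 10 lower. In the vHipp 15 were higher and 19 lower, against 35.5% and 36.5% of all genes, and the median was -0.03. Ndufs4, an accessory subunit of complex I known for the Leigh syndrome that its loss causes, was lower in the vHipp (-0.22, adjusted p 1.08e-11) and higher in the CPu (0.42, adjusted p 3.44e-33), with medians of 44.7 and 63.6 CPM; Cox7a2l was also lower in the vHipp (-0.22). In the CPu, NAc and vHipp the shares of members called higher were below those of all genes.

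Genes around the complexes were read from lists. All 17 genes of the citrate cycle and pyruvate dehydrogenase were higher in the VTA, with log2 differences from 0.22 to 0.65 and a median of 0.37, while 16 of 17 were lower in the BLA, 15 in the NAc, 11 in the CPu and 10 in the PFC; in the vHipp 10 were higher and 3 lower. Of 11 genes for cytochrome c and carriers 10 were higher in the VTA (median 0.38), among them Slc25a4, an ADP/ATP carrier (0.63), and Ckmt1, mitochondrial creatine kinase (0.72), and the exception was Slc25a14, a carrier of the uncoupling protein family (-0.76). Of 16 glycolytic genes 11 were higher and 4 lower; Ldha, the lactate dehydrogenase subunit tied to lactate formation, was lower (-1.12) and Ldhb higher (0.81). Mitochondrial ribosomal proteins divided into 47 higher and 14 lower of 76 tested, complex I assembly factors into 10 and 5 of 15, and assembly factors of complexes II to V into 13 and 8 of 29. For the assembly factors of complexes II to V the part called higher lay near the share of all genes. Of 16 regulators of mitochondrial genes 5 were higher and 10 lower in the VTA. The higher 5 were Esrrg, an orphan nuclear receptor (2.69), its relative Esrra (0.34), the coactivator Ppargc1a (0.68), and Tfam (0.37) and Tfb1m (0.32), factors of the mitochondrial genome; Nrf1 (-0.24) and Gabpa (-0.42) were lower. The genes named from these lists were chosen after their values were seen.

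The tissue differed in cell makeup as well, and in bulk tissue fewer cells of a type and less RNA per cell cannot be told apart. All 8 oligodendrocyte markers were higher in the VTA, with a median log2 difference of 1.92; their summed level was 13221 to 19938 CPM in VTA libraries, against medians of 1987 CPM in the vHipp to 7153 CPM in the CPu. All 4 markers of fast-spiking interneurons were higher as well, and their summed level was 505 to 1271 CPM in VTA libraries, against medians of 194.6 CPM in the CPu to 374 CPM in the vHipp. Of 10 neuron markers 7 were higher and 3 lower (summed level 6991 to 9139 CPM in the VTA, against medians of 4497 to 7168 CPM elsewhere), and 7 of 8 microglia markers were lower. In the BLA all 8 oligodendrocyte markers were lower (median -0.41), and in the PFC 6 of 8. In the vHipp all 8 were lower (-1.73), where the subunits were mixed, and in the CPu all 8 were higher (0.42). Their part in the subunit differences was not tested.

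Members with NRF1 letters in a promoter (23 of 69) had a median VTA difference of 0.27, against 0.32 for the 46 without, and those with ETS letters (16) had 0.25, against 0.31 for the 53 without. Nuclear genes that resemble mitochondrial transcripts were also counted; whether their reads come from mitochondrial RNA was not tested. There were 18 such genes with at least 80% identity over at least 200 bases, of which 17 are annotated as pseudogenes, and no member was among them. They held median shares of 7.01% of counts in CPu libraries, 5.94% in the NAc, 5.56% in the BLA, 5.20% in the VTA, 4.76% in the vHipp and 4.64% in the PFC.

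Levels within a complex were compared per kilobase of merged exon, as the median over 230 libraries. In complex I Ndufa4 and Ndufb9, an accessory subunit, stood highest at 120 and 116 CPM per kilobase, and Ndufb2 and Ndufa4l2 lowest at 5.04 and 1.64. The order in complex II was Sdha (98.9), Sdhd (61.5), Sdhb (48.8) and Sdhc (23.5). In complex III Uqcr11 and Uqcr10, both small subunits, had 106 and 100, while Uqcrc1 had 51.4 and Uqcrq, a ubiquinone-binding subunit, 35.6. In complex IV Cox8a (308) and Cox6a1 (254) were highest and Cox8b (0.214) and Cox8c (0) lowest. In complex V Atp5a1 and Atp5b, the alpha and beta subunits of the catalytic head, had 282 and 263, and Atp5j2 and Atp5s 11.5 and 6.87. Merged exons overstate the length of genes with long rare transcripts: by the longest coding transcript Atp5j2 had 39.8 CPM per kilobase. The orders depend on this choice. By the longest coding transcript Sdhb (95.7) stood above Sdhd (61.5), and Uqcrh (221) was highest in complex III. Cox4i1 (413) then led Cox8a (346) in complex IV, and Atp5b (582) led Atp5a1 (330) in complex V. In complex I Ndufa4, Ndufb9, Ndufb2 and Ndufa4l2 kept their ranks.

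Between conditions few subunit transcripts passed the test. Over the 6 regions, the difference between C24 and S24 mice, the early effect of cocaine self-administration, reached the threshold for 0 of 84 members in limma, against 0.819% of all genes higher and 0.0317% lower; 8 members had an unadjusted p under 0.05. The estimates averaged over regions leaned lower: 79 of 84 members were below 0, with a median log2 difference of -0.06, against -0.01 for all genes. Within the BLA the lean was the other way, with 78 of 82 members above 0 (edgeR, median 0.07). The medians of the other 5 regions were -0.10 to -0.06. Members also lay on one side without any call elsewhere, as in CS against SS in the NAc (82 of 82 above 0). The members are thus not separate observations of a condition effect. Sdha and Sdhd had the smallest p. Mouse means in CPM, here and in the contrasts below, were plain means over the regions a mouse had, without adjustment for region. Mice lacked different regions, and Sdha was higher in the VTA. The ranges of mouse means and their overlap can therefore partly reflect which regions were sampled. The fits with 1 mean per mouse used levels centred by region. Sdha mouse means were 392, 424 and 445 CPM in C24 mice, against 423, 441 and 457 CPM in S24 mice, which overlapped (log2 difference -0.06, SE 0.019, limma adjusted p 0.142). Sdhd mouse means were 67.2, 72.6 and 76.3 CPM in C24 mice, against 73.6, 78.0 and 80.7 CPM in S24 mice (-0.10, SE 0.032, limma adjusted p 0.160). The lists around the complexes had 0 calls in this contrast, with medians from -0.07 for glycolysis to -0.02 for the regulators, and 3 of 8 endothelial markers and 1 of 8 microglia markers were called higher in C24 mice. Their part in the lean of the members was not tested.

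The 30 d groups without SC gave no call. CS against SS, the late effect of cocaine self-administration, had 0 of 84 members (limma; 0 with an unadjusted p under 0.05), against 0.0370% of all genes higher and 0.0211% lower. The members with the smallest p were Ndufa4 (log2 difference 0.08) and Ndufa4l2 (-0.14), each with a limma adjusted p of 0.963. CC against SS had 0 members (0 with an unadjusted p under 0.05), against 0.0317% of all genes higher and 0% lower, with Cox5a (-0.11, limma adjusted p 0.662) and Ndufb4 (-0.08) closest. CC against CS, the effect of the cocaine injection after cocaine self-administration, had 0 (0 with an unadjusted p under 0.05), where 0% of all genes were called in either direction; Ndufa4l2 (0.16) and Atp5j (-0.05), the coupling factor of the stalk, had the smallest p. The members' median log2 differences were 0.01, 0.00 and -0.01 in these 3 contrasts.

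In SC against SS mice, the effect of a first cocaine injection, 2 members were called, both higher, against 0.0423% of all genes higher and 0.0687% lower. Both had been singled out by earlier results of these data, so the tests add no independent support. Atp5j2 mouse means were 41.7, 64.1 and 90.01 CPM in SC mice, against 32.7, 37.8 and 45.3 CPM in SS mice. The groups overlapped at the lower end of the SC mice. The log2 difference was 0.65 (SE 0.097, limma adjusted p 1.22e-06), above 0 in 6 of 6 regions, and with 1 mean per mouse it was 0.69 (SE 0.120, limma adjusted p 0.00348). Cox8a mouse means were 201.2, 243 and 278 CPM in SC mice, against 169, 190 and 218 CPM in SS mice, again overlapping (0.33, SE 0.070, limma adjusted p 0.00677, above 0 in 6 of 6 regions). With 1 mean per mouse Cox8a was at 0.34 (SE 0.0676, limma adjusted p 0.0145), and without any 1 of 3 SC mice it missed the threshold in the fit over libraries (limma adjusted p 0.0514, 0.0620 and 0.0647). The median of all members over the 6 regions was 0.03, with 77 of 84 above 0. Within regions (edgeR) the members did not share a direction. In the BLA 77 of 82 were above 0, in the NAc 73 of 82 and in the PFC 72 of 82. In the vHipp 47 of 83 were above 0, in the CPu 15 of 83 and in the VTA 19 of 82.

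**Figure D4:**
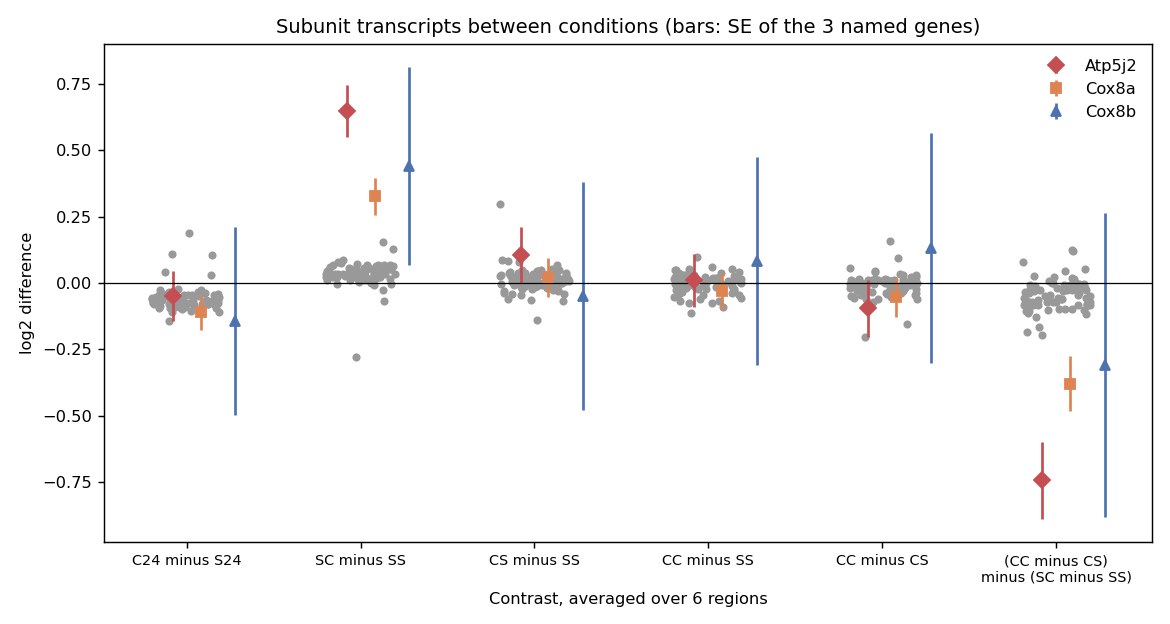
Log2 difference of each of the 84 tested subunit genes (grey points) in the 6 contrasts, averaged over regions, with Atp5j2, Cox8a and Cox8b drawn with their SE. Atp5j2 (0.65) and Cox8a (0.33) stand above the other called or uncalled members in SC minus SS, apart from Cox8b with its wide error, and Atp5j2 (-0.74) below them in the interaction.

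The interaction compares the cocaine injection after cocaine self-administration (CC against CS) with that after saline (SC against SS). It had 1 called member, Atp5j2, at -0.74 (SE 0.145, limma adjusted p 0.00338, below 0 in 6 of 6 regions), against 0.0264% of all genes higher and 0.0159% lower. With 1 mean per mouse it was -0.81 (SE 0.180, limma adjusted p 0.157) and not called. Cox8a, at -0.38, had a limma adjusted p of 0.318. The contrast subtracts SC against SS, where Atp5j2 was at 0.65, so the Atp5j2 call is not separate from that one. Atp5j2 had been singled out by earlier results of these data, so the call adds no independent support. The 6 regions came from the same mice and are not separate observations, here and in SC against SS. Mouse means of Atp5j2 were 32.2, 37.6 and 55.4 CPM in CC mice and 34.7, 43 and 52.5 CPM in CS mice.

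Within single regions edgeR's quasi-likelihood test called 0 members in each of the 36 region and contrast pairs. With 3 to 8 libraries per group these tests can miss moderate changes, so 0 calls do not show that differences were absent. All genes gave 0.00587% called for SC against SS in the BLA, 0.0118% in the NAc and 0.00585% in the VTA, 0.00602% for the interaction in the CPu and 0.00585% for C24 against S24 in the VTA, and 0% in the other 31 pairs. Atp5j2 had log2 differences in SC against SS of 0.90 in the BLA (edgeR adjusted p 0.576) and 0.84 in the VTA (edgeR adjusted p 0.607), and Uqcrc2 had an interaction of -0.30 in the vHipp (edgeR adjusted p 0.405). The effect of a contrast differed between regions for 0 members (limma F test), against 0.0264% of all genes for CS against SS, 0.0264% for SC against SS, 0.0423% for the interaction and 0% for the other 3 contrasts.

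Atp5j2 and Cox8a followed a split of the libraries. Gm20594, a gene at chr6:79817916-79818364 (mm10), exceeded 1 CPM in 21 of 230 libraries, with 1.44 to 3.79 CPM there and at most 0.0387 CPM in the other 209. Of the 21, 19 were SC libraries from 7 of the 8 SC mice and 2 were CS libraries. In 4 SC mice every library exceeded 1 CPM, in 3 SC mice a single library did, and in 1 SC mouse none. The transcript of Gm20594 is 88.5% identical to the mitochondrial ribosomal RNA gene mt-Rnr2 over 435 bases, and 100 aligned bases of both are shown to make this visible, with the 14 mismatches in capitals.
Gm20594: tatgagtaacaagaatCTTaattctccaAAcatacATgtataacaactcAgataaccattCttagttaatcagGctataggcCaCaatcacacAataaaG
mt-Rnr2: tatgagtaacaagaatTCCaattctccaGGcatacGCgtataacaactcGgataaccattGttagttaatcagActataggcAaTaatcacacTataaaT

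Atp5j2 had 54.2, 81.2 and 102 CPM in the 19 SC libraries with Gm20594 above 1 CPM, against 26.6, 38.1 and 79.6 CPM in the 18 SC libraries at or under it and 24.1, 37.3 and 60.0 CPM in the 39 SS libraries. Cox8a had 221, 267 and 381 CPM, 159, 193.3 and 283 CPM, and 132, 177 and 302 CPM in the same sets. The SC libraries at or under 1 CPM thus lay near the SS libraries, with overlapping ranges. Gm11410, a pseudogene 92.9% identical to mt-Cytb over 1142 bases, had 7.33, 24.1 and 54.0 CPM in the SC libraries above 1 CPM of Gm20594, and 0, 0.222 and 0.965 CPM in all libraries at or under it. Within each region the SC libraries above 1 CPM had higher Atp5j2 than the regional median of 33.6 to 44.4 CPM, from 54.2 to 81.2 CPM in the PFC (4 libraries) to 93.0 to 102 CPM in the VTA (3 libraries).

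Log2 levels with 0.5 CPM added were set against the mean of the region's libraries at or under 1 CPM of Gm20594. Mean differences between SC libraries above 1 CPM and the other SC libraries were 0.99 (Atp5j2), 0.45 (Cox8a) and 0.29 (Cox6b2). The median over the 84 members was 0.07, with 77 above 0 and 2 over 0.3, against 0.00 for all genes. The summed nuclear genes that resemble mitochondrial transcripts were 38693 to 91002 CPM in the 19 SC libraries above 1 CPM and 21679 to 86520 CPM in the 18 at or under it. Blood cell markers were 30.8 to 167 summed CPM above and 2.97 to 112 at or under it, and choroid plexus markers 6.74 to 17003 above and 7.65 to 4962 at or under it. None of these sums separated the sets, and their part in the difference was not tested. The sum of mitochondrial-like genes includes Gm20594 and rests mostly on genes with high counts. Gm10925, for example, had medians of 10414 CPM in the 19 SC libraries above 1 CPM and 10498 CPM in all libraries at or under it. A single gene of low counts could still differ: Gm11408, 93.6% identical to mt-Nd6, had medians of 20.8 and 3.09 CPM in the same sets.

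High Atp5j2 was not confined to those libraries. All 21 libraries with Gm20594 above 1 CPM were at least 1.61 times their regional median of Atp5j2, and so were 10 of the 209 others, from the groups CC (2), CS (3), SC (2), C24 (2) and S24 (1). Refitted without the 21 libraries, SC against SS had 0 called members, with Atp5j2 at 0.13 (SE 0.105, limma adjusted p 0.912) and Cox8a at 0.09 (limma adjusted p 0.929), and the interaction of Atp5j2 was -0.17. The members' median in SC against SS was then -0.01. The 21 libraries were set apart by a split seen in these data, and all had high Atp5j2. Their removal therefore lowers its difference by selection, and the refit tests no cause. It kept 18 SC libraries from 4 mice, with 2 in the VTA. In the 3 SC mice with a single library above 1 CPM, Atp5j2 had 78.3, 69.8 and 73.5 CPM in that library, against at most 53.5, 42.5 and 77.1 CPM in the other libraries of the same mouse. The 2 CS libraries above 1 CPM, from mice without a cocaine injection on the last day, had 70.9 and 73.5 CPM, against at most 42.7 and 40.5 CPM in the other libraries of those mice.

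**Figure D5:**
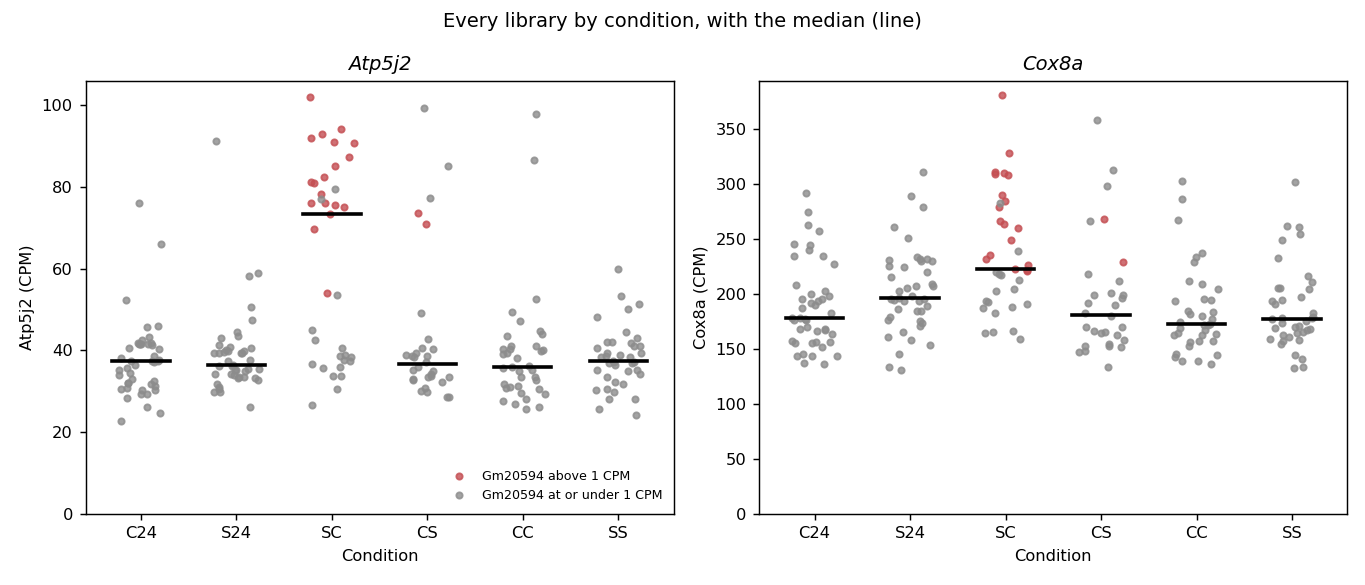
CPM of Atp5j2 (left) and Cox8a (right) in every library by condition; red points are libraries with Gm20594 above 1 CPM, grey points the others, lines medians of all libraries of the condition. The red SC points of Atp5j2 lie at 54.2 to 102 CPM, most grey points under 60.0 CPM.

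Atp5j2 shared 1.02% of its 50-base words with another gene (Gm6581) and Cox8a none. Over 10% of the words were shared for 19 members and 0 for 35. Shares were highest for Atp5g2, Atp5o (35.1%), the stalk subunit of the ATP synthase, Ndufb6 (31.6%, with its neighbour Smim27) and Ndufa13 (28.5%, with Tssk6), a complex I subunit, and the strand setting of the counting is not given in the sources used here, so reads of these overlaps are uncertain. Within the 36 groups the members varied less than other genes, with a median SD of 0.20 log2 units, against 0.25 for all genes. Sdha varied least (0.080) and Cox8b most (0.98), while Atp5j2 (0.40) was the most variable member above 5 on the log2 CPM scale.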

How the data were processed

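Per the labels' protocols, RNA came from Trizol and an RNeasy micro kit with DNase, ribosomal RNA was removed, and ScriptSeq Complete Gold libraries were sequenced; the molecule field reads polyA RNA. The deposited table holds unnormalized read counts per Ensembl gene, which the authors made with HTSeq on mm10, per the submitters' processing notes, which also name limma. Aligner, annotation release and strand setting are not given in the sources used here. Of 43346 identifiers, 42462 (98.0%) had a symbol in GENCODE M21 and 9117 had no count.

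Genes were kept by filterByExpr (minimum count 10, minimum total 15) and scaled by TMM. In R 4.3.3 limma 3.58.1 (voom) was fitted to all 230 libraries over 36 region and condition groups, each region being tested against the mean of the other 5 and each condition contrast over the 6 regions with equal weight. The mouse was a block through duplicateCorrelation (consensus correlation 0.0398): libraries with the same title number correlated at a median of 0.07 over 486 pairs, against -0.02 over 3871 pairs of different mice of a condition. That a number marks a mouse was read from the titles. Single regions were fitted with edgeR 4.0.16 (robust quasi-likelihood), with DESeq2 1.42.0 as an alternative, and p-values were adjusted by Benjamini-Hochberg over all genes, threshold 0.05. The scripts were tested on simulated data. Words of 50 bases and BLAST 2.17.0 served for shared sequence. Members and lists were chosen with earlier results of these data known. Named were called members in condition contrasts with Atp5j2 and Cox8a, the 3 highest and lowest called members per region, the 2 highest and lowest per complex by level per length, the isoform families, and the 2 members with the smallest p per contrast. Alternatives covered normalization, filter, weights, block, libraries left out and tools.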

Additional observations from a re-analysis of the deposited data

Results flagged for a closer look

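In all 88 groups of values were examined, for Atp5j2, Cox8a and the mean level of all members per mouse. Chance flags about 1 in 20 groups where values are separate and normally distributed. Here groups shared libraries and CPM values need not be normal, so that rate is only a rough guide. Single values stood far above the rest of their group in 14 groups, all of Atp5j2 or Cox8a. For Atp5j2 these were 98.0 CPM in a BLA library of a CC mouse, whose mean over regions of 55.4 CPM also stood apart from the other CC mice (next highest 39.5 CPM), 85.2 CPM (PFC) and 77.4 CPM (NAc) in 1 CS mouse, and 73.5 CPM in the vHipp of another CS mouse, a library with Gm20594 above 1 CPM. Further such values were 91.2 CPM in the NAc and 58.9 CPM in the CPu of S24 mice, 66.1 CPM in the PFC of a C24 mouse and 60.0 CPM in the CPu of an SS mouse. For Cox8a they were 358 CPM in the CPu of a CS mouse, 313 CPM in the PFC of the CS mouse with high Atp5j2 there, 302 CPM in the CPu of the SS mouse with 60.0 CPM of Atp5j2, 287 CPM in the vHipp of a CC mouse and 198 CPM in the VTA of a C24 mouse. All 14 were the highest of their group. Some of these libraries were also high for another member, so the values need not be particular to the 2 genes. Cox6a2 had 6.34 CPM in the BLA library of the CC mouse (group median 4.09 CPM). It had 7.36 CPM in the CPu library of the SS mouse (group median 4.34 CPM). The PFC library of the C24 mouse was not high for Cox6a2 (2.94 CPM, group median 3.10 CPM).

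The difference of Atp5j2 between injections was tested between mice with cocaine and with saline self-administration: the interaction was -0.744 log2 units (limma adjusted p 0.00338) in the fit over libraries, and -0.81 (limma adjusted p 0.157), not called, with 1 mean per mouse. Without the 21 libraries with Gm20594 above 1 CPM the interaction was -0.17. All 21 had high Atp5j2, so their removal shrinks it by selection. The interaction subtracts SC against SS, in which Atp5j2 was also called, so it adds no independent support.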

How the results depend on the processing

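Counts of called members stayed within 1.5 times of the main count in 227 comparisons with an alternative and left that range in 7; with a mouse or library left out the numbers were 639 and 5. Many of these agreements set 0 calls against 0 calls, as within single regions, and say little about stability. The interaction had 2 called members with sample quality weights (Cox8a at -0.41, limma adjusted p 0.0191, joined), 0 with 1 mean per mouse (Atp5j2 at -0.81, limma adjusted p 0.157) and 0 without the libraries with Gm20594 above 1 CPM, where SC against SS also had 0. Those libraries all had high Atp5j2, so the loss of its calls there follows from the selection. The vHipp had 19 calls with S24 and SS libraries only, and the members' medians were then -0.24 in the BLA and 0.09 in the CPu. DESeq2 called 1 member in SC against SS in the BLA (Atp5j2, adjusted p 0.0464) and 1 in the VTA (Atp5j2, adjusted p 0.00665). Cox6b2 in the vHipp turned to -0.081 without the 14 libraries with high choroid plexus or blood cell markers, an alternative chosen after seeing the data; these libraries include 3 SC libraries with choroid plexus markers. The causes were not tested.

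With each mouse left out in turn (weights, normalization and correlation kept), calls ran from 49 to 67 in the BLA, 44 to 49 in the CPu, 41 to 54 in the NAc, 60 to 69 in the PFC, 31 to 37 in the vHipp and 71 to 73 in the VTA. SC against SS had 1 to 2: without any 1 of 3 SC mice whose libraries all had Gm20594 above 1 CPM, Cox8a missed the threshold (limma adjusted p 0.0514, 0.0620 and 0.0647). C24 against S24 had 0 to 1, the call being Sdha without 1 S24 mouse (-0.07, limma adjusted p 0.0315), the interaction had 1 to 1, and the other 3 contrasts 0 to 0. Within regions, with each library of groups of up to 5 left out, SC against SS in the VTA had 0 to 1 and the others 0 to 0. With no replicate block Atp5j2 in SC against SS was 0.64 (limma adjusted p 1.99e-07) and the block changed no call between conditions. Depth limits the tissue-restricted forms under 1 CPM, Cox7b2, Cox8b and Cox8c among them. By the longest coding transcript 14 of 20 levels per kilobase moved beyond the spread between libraries.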
